A study of Mus musculus with 11 samples.

Results

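The hippocampus of mice 15 min after insulin given through the nose was compared with the hippocampus of mice given saline. The members are the libraries that the sample labels place in those groups, 2 at 15 min and 3 with saline, which are 5 of the 11 libraries of the series. Gene expression was described over the 27653 gene rows, of 46202 in the deposited table, that passed a filter on low signal and had a value in both groups.

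The study followed hippocampal RNA after intranasal insulin, with further groups at 1 h and 6 h that entered the test only through the estimate of the spread. All animals were male mice of the strain that the labels write as C3-C57B1/6J, 2 to 3 months old and housed singly, and no genotype or other agent is named beside isoflurane anaesthesia before the brain was taken. Insulin was given at 2.4 IU per nare. By title the controls received saline, but they are marked Untreated under treatment and 0 min under time, so no saline group of the same 15 min stands beside the insulin libraries. The 15 min group holds replicates 1 and 3, and replicate 2 was not analysed here. Whether every library came from its own mouse is not stated, and the p-values speak only of library-to-library spread, which may be technical. Running numbers in the column names follow the groups, and the labels do not say what they number. If they stand for an order of handling, that order and insulin cannot be told apart.

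Insulin binds a receptor tyrosine kinase, which acts through insulin receptor substrates on phosphoinositide 3-kinase and AKT and through the MAP kinase cascade. MAP kinase and calcium signals switch on immediate early genes within minutes, without new protein synthesis; in the hippocampus the same genes answer to neuronal activity, handling and stress. AKT also keeps FOXO transcription factors out of the nucleus, so that genes induced by FOXO, such as Pdk4, are known to fall under insulin in peripheral tissues. Several of these genes are in addition induced by glucocorticoids, the adrenal stress hormones.

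The deposited values are log2 signals that the authors had made equal in distribution between libraries. The base of the logarithm is not stated and was taken as 2 from the range of the values. Libraries held a value for 32941 to 33510 rows with saline and for 32427 and 32037 rows at 15 min, and read depth is unknown. Over the rows with 5 values, the SD of the difference between 2 libraries was 0.51 to 0.57 within saline, 0.64 between the 15 min libraries and 0.59 to 0.70 across the groups. The row Rn18s-rs5, taken here as nuclear 18S ribosomal RNA, read 16.0025, 13.05 and 13.79 in saline replicates 1, 2 and 3, and 9.67 and 10.49 at 15 min. RefSeq lists this symbol as a pseudogene on chromosome 17. The value 16.0025 is the maximum of every library, so in saline replicate 1 it shows the top rank and not a free level. Markers of the labelled tissue were present in all 5 libraries: Prox1, a transcription factor of dentate granule neurons, read 0.73, 0.81 and 0.82 with saline and 0.70 and 0.77 at 15 min. Hippocampal markers were not all so even. At 15 min, replicate 3 exceeded replicate 1 in 1 of 8 dentate granule markers, which was Prox1. It did so in 8 of 10 pyramidal neuron markers and in 45.7% of all rows. Signals of a whole tissue cannot tell fewer cells of a type apart from less RNA per cell.

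At 15 min, a small set of immediate early and hormone-responsive genes was higher than with saline, and a larger set of rows was lower. The rises were led by Klf2 (4.59-fold), Klf4 (3.75-fold), Fosb (3.48-fold) and Fos (3.11-fold), which all encode transcription factors, followed by Pdk4, Cyr61, Sgk1, Fkbp5, Nr4a1 and Banp. In limma's moderated test with Benjamini-Hochberg adjustment at 0.05, 66 rows differed (0.239% of those tested), 12 of them higher (0.0434%) and 54 lower (0.195%). At an unadjusted p under 0.05 the number was 4178 (15.1%). Both 15 min libraries lay above all 3 saline libraries in 1841 of 26468 rows with 5 values (6.96%) and below all 3 in 8228 (31.1%).

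The median log2 change of all rows tested was -0.14, and each list median below is its distance from that value. With every library shifted to a common median, 46 rows were called, 20 higher and 26 lower, so that rises made up 43.5% of the calls instead of 18.2%, and 21.0% of rows lay above and 13.8% below. After cyclic loess, rises were 35.1% of 37 calls. Calls depended on single libraries: leaving out saline replicate 1, 2 or 3 left 18, 21 or 19 calls, leaving out 15 min replicate 1 or 3 left 6 or 5, leaving out any 1 h library left 33 to 40, leaving out 6 h replicate 1 or 3 left 41, and leaving out 6 h replicate 2 gave 103.

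**Figure D1:**
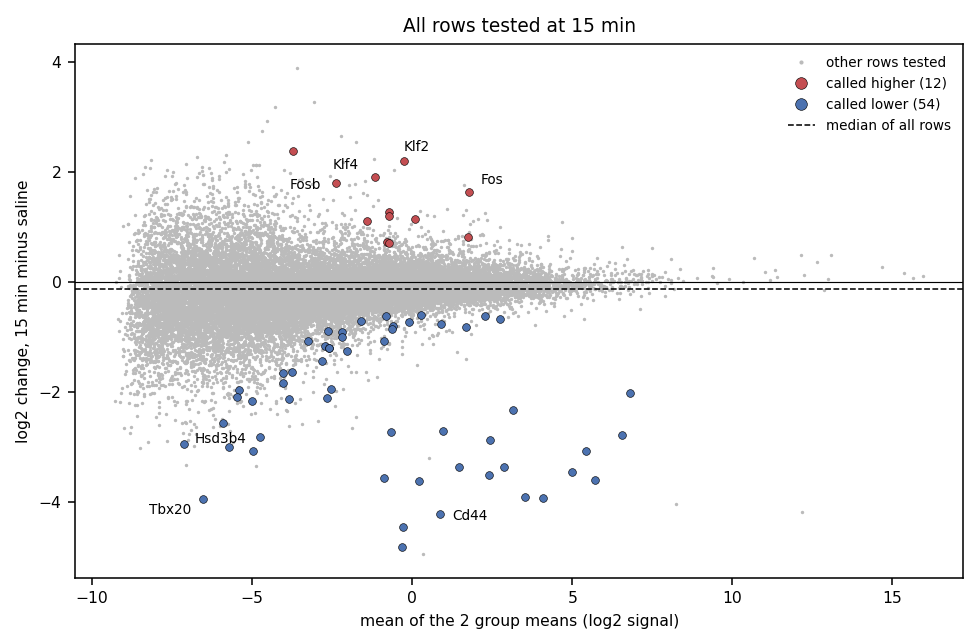
Log2 change (15 min minus saline, vertical) of each of the 27653 rows tested against the mean of the 2 group means (log2 signal, horizontal), with the 12 rows called higher in red and the 54 called lower in blue. The dashed line is the median of all rows, -0.14; the changes of rows with low signal spread more widely, and several of the falls lie at high signal with changes beyond -2.

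Promoters of some of the named rises are shown, chosen because they hold the same short motif. Its recurrence among the windows shown is fixed by that choice. RefSeq (GRCm38.p6) gave the 250 bases before the start of 9 of the 10 named rises. The CRE half-site, TGACG on either strand and the core of the element bound by CREB and related factors, was found for 7 of the 9. Of all 32851 windows of this length in the table, 17.8% hold it. Of the 8 genes with a single window in the table, 6 had it; Sgk1 had it in 1 of 6. The Nr4a1 window lies inside that gene's RefSeq span, which begins at 101253902 on chromosome 15, so an earlier start was not searched. The Fosb window also overlaps its gene's RefSeq span, which reaches 19310118 on chromosome 7. The half-site marked in Fosb lies inside that span, and the bases before the earlier start were not all searched. In the sequences below, written 5′ to 3′ on the gene's own strand, capitals mark this half-site (TGACG, or CGTCA where it lies on the other strand).
Fos (chr12:85473640-85473889, plus strand): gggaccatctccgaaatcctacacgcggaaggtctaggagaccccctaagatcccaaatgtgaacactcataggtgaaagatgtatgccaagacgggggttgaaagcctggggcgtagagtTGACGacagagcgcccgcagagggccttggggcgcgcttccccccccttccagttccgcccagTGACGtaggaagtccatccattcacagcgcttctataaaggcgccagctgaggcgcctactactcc
Fosb (chr7:19310046-19310295, minus strand): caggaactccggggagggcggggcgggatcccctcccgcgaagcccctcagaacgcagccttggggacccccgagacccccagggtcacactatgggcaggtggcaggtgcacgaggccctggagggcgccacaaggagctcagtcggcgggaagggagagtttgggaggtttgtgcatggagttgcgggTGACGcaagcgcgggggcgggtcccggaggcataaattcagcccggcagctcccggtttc
Klf2 (chr8:72318812-72319061, plus strand): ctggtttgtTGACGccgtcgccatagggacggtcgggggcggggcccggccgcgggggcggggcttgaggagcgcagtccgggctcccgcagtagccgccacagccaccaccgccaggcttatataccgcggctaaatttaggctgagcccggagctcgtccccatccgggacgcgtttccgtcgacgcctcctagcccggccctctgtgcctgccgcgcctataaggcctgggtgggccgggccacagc
Klf4 (chr4:55532476-55532725, minus strand): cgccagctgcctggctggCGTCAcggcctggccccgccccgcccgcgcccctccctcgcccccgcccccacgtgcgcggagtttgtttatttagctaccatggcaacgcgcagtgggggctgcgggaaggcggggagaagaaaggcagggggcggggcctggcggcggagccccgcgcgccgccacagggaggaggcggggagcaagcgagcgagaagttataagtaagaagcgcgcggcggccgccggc
Nr4a1 (chr15:101266596-101266845, plus strand): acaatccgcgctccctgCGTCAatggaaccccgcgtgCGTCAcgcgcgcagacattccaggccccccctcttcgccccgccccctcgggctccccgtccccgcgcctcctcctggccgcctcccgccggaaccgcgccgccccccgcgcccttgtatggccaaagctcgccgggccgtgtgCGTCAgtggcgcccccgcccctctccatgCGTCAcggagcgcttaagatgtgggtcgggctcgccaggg
In Fos the half-sites began 129 and 66 bases before the start, in Fosb 60 bases before it, in Klf2 241 and in Klf4 232. Nr4a1 held 4, the nearest 40 bases before the start. Cyr61 held 1, which began 58 bases before its start. For Pdk4 and Fkbp5 these letters were not in the window. The GC box GGGCGG, on either strand, was found for 8 of the 9 genes and in 32.7% of all windows. The FOXO element GTAAACA was found for none of the 9 and in 3.17% of all windows. The CArG box bound by SRF (CC, then 6 bases that are each A or T, then GG) was also found for none of the 9, and in 1.47% of all windows. Only 250 bases were searched, and both shares are small. Finding none in 9 therefore does not show that these genes lack a FOXO element or a CArG box. The glucocorticoid receptor half-site AGAACA was found for 1 of them, Sgk1, and in 16.1% of all windows. A match is a stretch of letters, and binding was not measured.

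Among the AP-1 factors, which pair as Fos and Jun proteins on DNA, Fos and Fosb rose. Fos read 1.00, 0.98 and 0.90 in saline replicates 1, 2 and 3 and 2.64 and 2.55 in 15 min replicates 1 and 3. The saline libraries lay close together, far below both insulin libraries. Its group means were 0.96 ± 0.05 (SD, n = 3) and 2.60 ± 0.06 (SD, n = 2), a log2 change of 1.64 (SE 0.14; limma adjusted p = 0.0033). Fos was the only row called in all 21 alternative fits, and the only one called when the 5 libraries were fitted alone (adjusted p = 0.010).

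Fosb, a close relative of Fos whose splice variants persist in neurons, read -3.41, -3.26 and -3.18 with saline and -1.72 and -1.24 at 15 min. The groups did not overlap, and the change was 1.80 (SE 0.26; limma adjusted p = 0.03). It was called in 2 of 11 fits that left out 1 library, namely without 6 h replicate 1 or 2. Its adjusted p was 0.21 without 15 min replicate 3 and 0.14 without saline replicate 1. Both 15 min libraries were above all saline libraries in 8 of the 10 AP-1 factors, against 6.96% of all rows. The list's median lay 0.81 above that of all rows (0.28 to 1.11 over the alternatives). Junb, another AP-1 partner, read 2.09, 2.17 and 2.47 with saline and 3.05 and 3.41 at 15 min, but did not pass (change 0.99, limma adjusted p = 0.12).

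**Figure D2:**
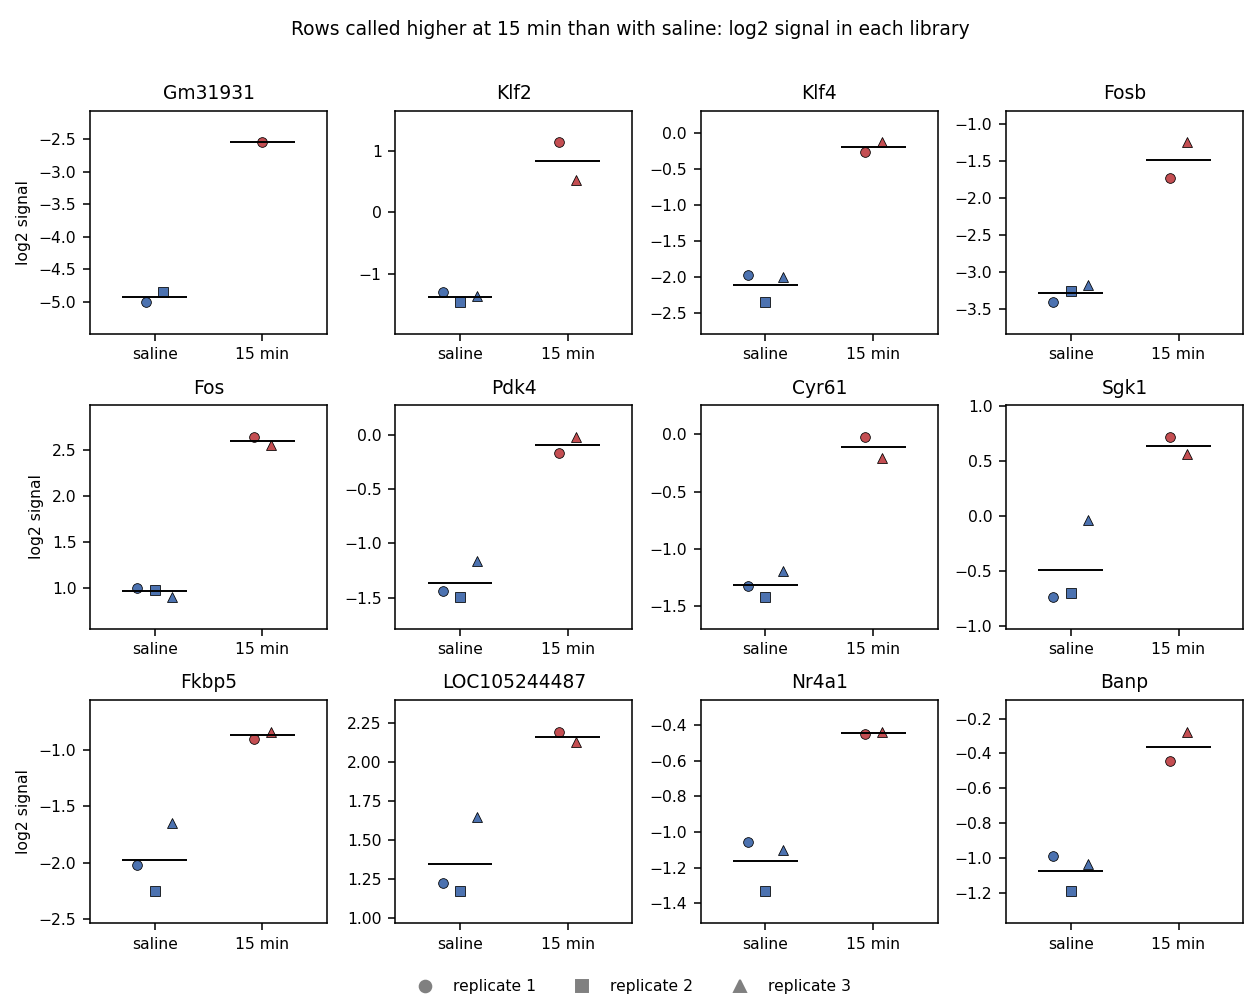
Log2 signal (vertical, each panel on its own scale) of the 12 rows called higher, in the saline libraries (blue) and 15 min libraries (red); symbols give the replicate and lines the group mean. In the 11 rows with 5 values every red point lies above every blue point, and in Sgk1, Fkbp5, LOC105244487, Pdk4, Fosb and Cyr61 saline replicate 3 is the highest blue point.

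The early Krüppel-like factors Klf2 and Klf4 had the largest changes among the named genes that were called higher. Klf2, a zinc-finger factor known from endothelium and induced by growth factors and flow, read -1.29, -1.45 and -1.36 with saline and 1.14 and 0.52 at 15 min. Replicate 1 was the higher of the insulin libraries, and both were far above saline. The change was 2.20 (SE 0.21; limma adjusted p = 0.0084), and it was called in 10 of 11 fits without 1 library, the exception being the fit without 15 min replicate 1 (adjusted p = 0.060). Klf4, a relative that shares many of its target sites, read -1.98, -2.35 and -2.0 with saline and -0.27 and -0.14 at 15 min. The insulin libraries agreed closely and the groups stood apart, with a change of 1.91 (SE 0.15; limma adjusted p = 0.0033) that held in 11 of 11 such fits. Of the 7 factors on this list 2 were called (0.239% of all rows) and 4 had both insulin libraries above saline (6.96% of all rows). The list's median lay 0.46 above that of all rows. Klf15, induced by glucocorticoids and fasting, had a change of 0.55 that did not pass (limma adjusted p = 0.075), though it was called after the shift to a common median. Among endothelial markers, 0 of 10 lay above saline and 4 below, against 6.96% and 31.1% of all rows. After that shift 1 lay above and 2 below, against 21.0% and 13.8% of all rows. Cldn5 read 3.56, 3.10 and 2.78 with saline and 2.78 and 2.41 at 15 min.

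The orphan nuclear receptors of the Nr4a group, which bind DNA without a known hormone, included 1 call. Nr4a1 read -1.05, -1.33 and -1.1 with saline and -0.45 and -0.44 at 15 min, so that the insulin libraries were nearly identical and above saline. Its change was 0.72 (SE 0.12; limma adjusted p = 0.047), and it was called in 1 of 11 fits without 1 library, the one without 6 h replicate 2; the adjusted p reached 0.25 without 15 min replicate 3. Nr4a2 and Nr4a3 had changes of 0.86 and 1.30 that did not pass (limma adjusted p = 0.12 and 0.26). For Nr4a3, saline replicate 3 read -1.61, above 15 min replicate 1 at -1.78.

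None of the 6 rows of the Egr family, zinc-finger factors and their co-repressors Nab1 and Nab2, passed the test (4 had an unadjusted p under 0.05), although its median lay furthest above that of all rows among the early response lists (1.6; 0.81 to 1.92 over the alternatives). Egr4 read -3.62, -3.39 and -2.03 with saline and -1.01 and 0.07 at 15 min, a change of 2.54 (SE 0.62; limma adjusted p = 0.14). Egr1, which is used as a marker of recent neuronal activity, read 0.86, 1.02 and 1.18 with saline and 2.02 and 2.63 at 15 min (change 1.31, limma adjusted p = 0.14). In 5 of the 6 rows both insulin libraries were above saline, against 6.96% of all rows. Saline replicate 3 was the highest saline library in all 6, against 42.5% of all rows, and 15 min replicate 3 exceeded replicate 1 in 5. Without 6 h replicate 2, Egr1 was called (adjusted p = 0.048).

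Genes that act at active synapses gave no call among 21 tested, 6 of which had an unadjusted p under 0.05 (15.1% of all rows). Arc, whose protein remodels synapses after activity, read 2.39, 2.24 and 2.66 with saline and 2.62 and 3.5 at 15 min, and the groups overlapped (change 0.63, limma adjusted p = 0.34). Npas4, a factor switched on by calcium entry, read -2.48, -2.30 and -2.06 with saline and -1.70 and -1.33 at 15 min (change 0.77, limma adjusted p = 0.25). Arl4d, a small GTPase, had the smallest p of this list, with 1.44, 1.24 and 2.30 against 3.14 and 2.69 and an adjusted p of 0.096. Of the list 8 rows lay above saline and 2 below, against 6.96% and 31.1% of all rows. The MAP kinase feedback inhibitors, which damp the cascade, also gave 0 calls of 13 (6 at an unadjusted p under 0.05), with 6 above and 2 below; Spry4 came nearest (change 0.72, limma adjusted p = 0.08).

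Among 14 targets of the factors SRF and YAP, Cyr61 was the only call. It encodes a secreted matricellular protein (Ccn1 in RefSeq) that answers to growth factors and tension. Cyr61 read -1.33, -1.42 and -1.19 with saline and -0.02 and -0.20 at 15 min, with no overlap. The change was 1.2 (SE 0.14; limma adjusted p = 0.014), called in 7 of 11 fits without 1 library. The calls were lost without saline replicate 1 or 2 (adjusted p = 0.055 and 0.0501) and without 15 min replicate 1 or 3 (0.087 and 0.10). Zfp36, which speeds the decay of cytokine mRNAs, was also apart (-1.38, -1.27 and -1.07 against -0.17 and -0.30) without passing (limma adjusted p = 0.065). The smooth muscle genes Acta2 and Tagln on the same list were lower at 15 min without passing (changes -0.65 and -0.50). The list as a whole lay 0.07 above the median of all rows.

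Pooled over these 7 lists, 6 of 74 rows tested were called higher and 0 lower, against 0.0434% and 0.195% of all rows. Both insulin libraries were above saline in 37 and below in 7, against 6.96% and 31.1% of all rows.

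The next 3 rises belong to the 23 tested genes known to be induced by glucocorticoids. Pdk4, a kinase that shuts pyruvate dehydrogenase and so spares glucose, read -1.44, -1.49 and -1.16 with saline and -0.17 and -0.02 at 15 min. Every insulin value was above every saline value, with a change of 1.27 (SE 0.17; limma adjusted p = 0.02). It was called in 7 of 11 fits without 1 library and lost without saline replicate 1 or 2 (adjusted p = 0.10 and 0.081) and without 15 min replicate 1 or 3 (0.087 and 0.19). Sgk1, a kinase related to AKT, read -0.74, -0.71 and -0.04 with saline and 0.72 and 0.56 at 15 min. Saline replicate 3 stood well above the other saline libraries, and the change of 1.13 (SE 0.18; limma adjusted p = 0.047) was called in 1 of 11 such fits, the one without that library (adjusted p = 0.0075); without another library it was 0.051 to 0.21. Fkbp5, a co-chaperone that restrains the glucocorticoid receptor, read -2.02, -2.25 and -1.65 with saline and -0.90 and -0.84 at 15 min, again with saline replicate 3 the highest control. Its change was 1.1 (SE 0.17; limma adjusted p = 0.04), called in 2 of 11, without saline replicate 3 or 6 h replicate 2, with an adjusted p of up to 0.23.

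In the glucocorticoid list as a whole, 3 of 23 were called higher and 0 lower, against 0.0434% and 0.195% of all rows. Both insulin libraries were above saline in 16 and below in 3, against 6.96% and 31.1% of all rows. The median lay 0.80 above that of all rows (0.43 to 0.83 over the alternatives). Zbtb16, a zinc-finger repressor, read -2.53, -2.96 and -1.69 with saline and -0.77 and -0.35 at 15 min (change 1.84, limma adjusted p = 0.085). Nfkbia, the inhibitor of NF-kappaB, had a change of 0.71 and Ddit4, an inhibitor of mTOR signalling, one of 0.66, and neither passed (limma adjusted p = 0.086 and 0.12). Saline replicate 3 was the highest control in 15 of the 23 rows (65.2%, against 42.5% of all rows). Hormone levels were not measured here.

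Genes induced by FOXO factors include Pdk4, and it was the only call among 23 tested (0.239% of all rows were called). Bcl6, a transcriptional repressor, read -1.15, -1.28 and -0.93 with saline and -0.48 and -0.41 at 15 min (change 0.67, limma adjusted p = 0.072), and passed after cyclic loess, after the shift to a common median and with array weights. Of the list, 9 rows lay above saline and 2 below, against 6.96% and 31.1% of all rows. Igfbp1, a secreted IGF-binding protein that insulin is known to repress in liver, was near the bottom of the signal range (-7.76, -8.59 and -8.82 against -6.94 and -7.42). Its change did not pass (limma adjusted p = 0.41).

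The remaining rises were Banp and 2 predicted rows. Banp, which encodes a nuclear protein that binds DNA at matrix attachment regions, read -0.99, -1.19 and -1.03 with saline and -0.45 and -0.28 at 15 min (change 0.71, SE 0.11; limma adjusted p = 0.045). It was called in 1 of 11 fits without 1 library, the one without 6 h replicate 2, with an adjusted p of up to 0.27. The predicted row LOC105244487 read 1.22, 1.17 and 1.64 with saline and 2.19 and 2.13 at 15 min (limma adjusted p = 0.045), and was called in 2 of 11, without saline replicate 3 or 6 h replicate 2. Gm31931, a pseudogene, had the largest fitted rise, 5.18-fold, from only 3 values: -5.00 and -4.85 in saline replicates 1 and 2 and -2.55 in 15 min replicate 1. It was called in none of the 10 fits without 1 library that could test it (adjusted p 0.053 to 0.21).

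**Figure D3:**
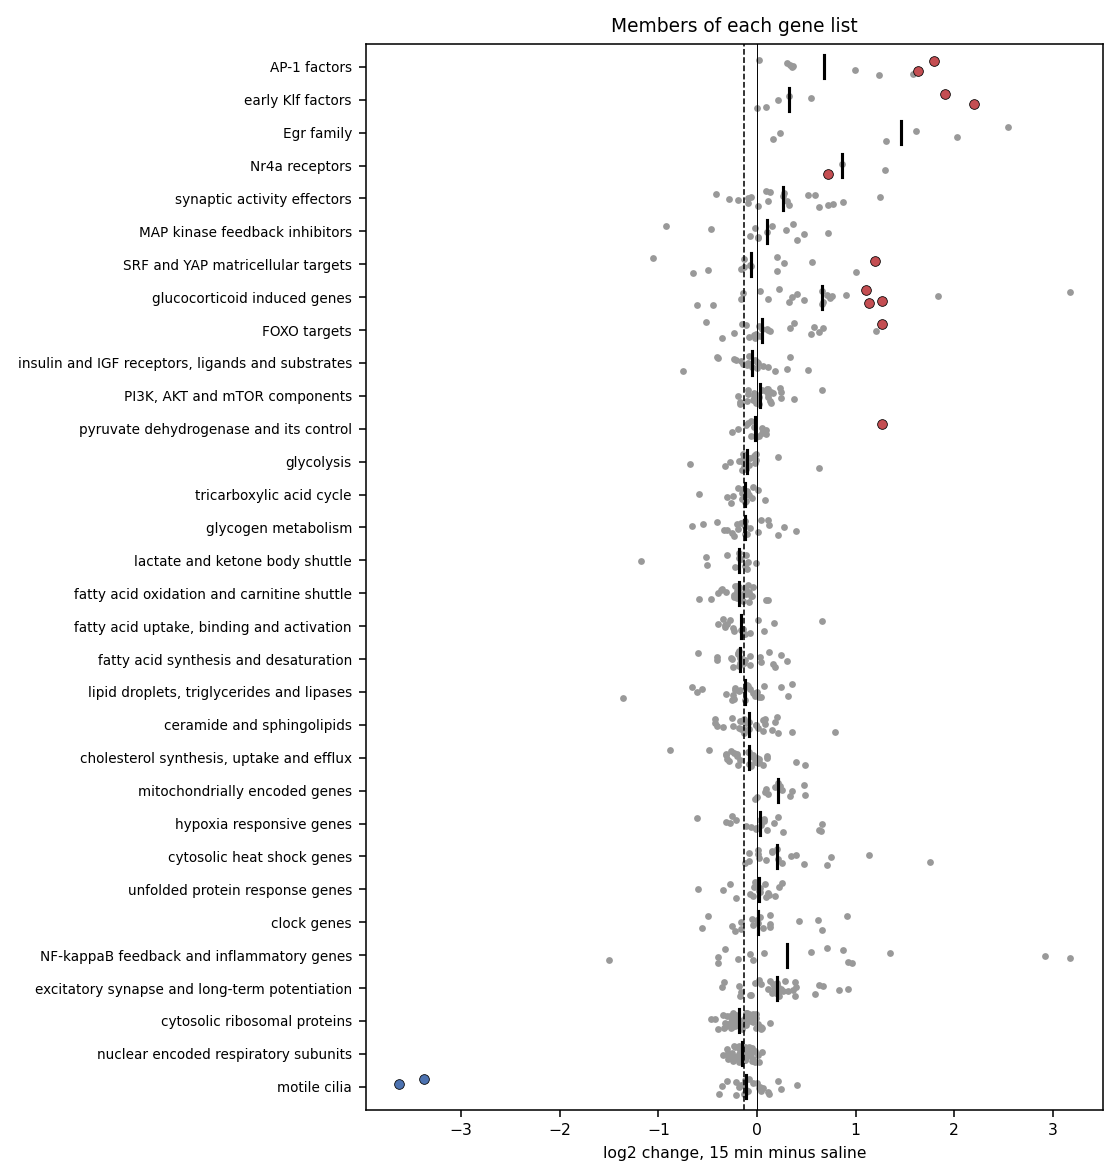
Log2 change (15 min minus saline, horizontal) of each tested member of 32 gene lists, with calls in red (higher) or blue (lower), black bars for list medians and a dashed line for the median of all rows, -0.14. The early response lists other than the SRF and YAP targets, and the glucocorticoid list, lie to the right, with medians on this axis up to 1.46. The SRF and YAP, fuel, lipid, ribosomal and respiratory lists have medians closer to the dashed line.

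Inflammatory and heat shock genes gave no call in limma's test, with 6 of 16 and 4 of 19 at an unadjusted p under 0.05 (15.1% of all rows). Lcn2, a secreted iron-carrier protein of reactive glia, read -6.09, -5.37 and -6.14 with saline and -2.12 and -3.28 at 15 min, a change of 3.17 with a wide error (SE 1.02; limma adjusted p = 0.20). Cxcl1, a neutrophil chemokine, read -5.78, -7.23 and -5.03 with saline and -2.27 and -3.91 at 15 min (limma adjusted p = 0.14). In both, 15 min replicate 1 was the higher insulin library. Of 19 cytosolic heat shock genes, 13 had both insulin libraries above saline and 2 below, against 6.96% and 31.1% of all rows. Their median lay 0.34 above that of all rows. Hspa1b, the inducible Hsp70, read 0.70, 0.57 and 0.94 with saline and 1.54 and 3.45 at 15 min, so that replicate 3 carried most of its change (limma adjusted p = 0.32).

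Markers of neighbouring regions and other cells differed between the groups in places, and none named in this paragraph passed. Of 9 striatal markers, 5 lay above saline and 1 below, against 6.96% and 31.1% of all rows. The log2 of their summed signal was 3.26 to 3.65 with saline and 4.02 to 4.26 at 15 min. Penk, an opioid precursor of striatal neurons that interneurons also make, read 1.16, 0.92 and 1.95 with saline and 2.11 and 2.79 at 15 min. The 8 neocortical markers, 2 above saline and 1 below, had a median 0.85 above that of all rows, which was 0.16 without 15 min replicate 3 and 1.27 without replicate 1; Nr4a2 is on this list too. Striatal and interneuron markers had medians 0.71 and 0.46 above that of all rows. These were 0.66 and 0.11 without 15 min replicate 3, and 0.94 and 0.79 without replicate 1. Of the 10 interneuron markers, 1 lay above saline and 1 below. Choroid plexus markers differed most between the insulin libraries: Ttr, the transthyretin of that epithelium, read 5.85, 5.22 and 5.50 with saline and 6.98 and 4.71 at 15 min. The 13 markers in the table, 12 of them tested, gave a log2 summed signal of 5.48 to 6.06 with saline and 5.01 to 7.16 at 15 min. Of 9 pericyte and smooth muscle markers, 0 lay above saline and 7 below, or 4 after the shift to a common median (log2 summed signal 3.59 to 3.67 with saline and 3.13 to 3.29 at 15 min). Over all marker lists, 153 of 154 symbols were in the table and 150 were tested. The part of tissue composition in the rises and falls was not tested.

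The 54 falls ranged from 1.52-fold to 28.4-fold lower. Predicted or clone names were carried by 27 of them (50%), not far from the 40.3% of all rows. Of the 12 rises, 2 had such names (16.7%). The list of motile cilia genes held 2 of the falls. Among the 15 named falls were Cd44, the receptor for hyaluronan, Lars2, the leucyl-tRNA synthetase of mitochondria, and Gphn, or gephyrin, the scaffold of inhibitory synapses.

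Cd44 read 3.81, 2.42 and 2.74 with saline and -1.13 and -1.33 at 15 min, 18.7-fold lower (change -4.22, SE 0.54; limma adjusted p = 0.019). Lars2 read 6.82, 5.53 and 5.82 with saline and 1.92 and 2.34 at 15 min, 15.2-fold lower (limma adjusted p = 0.03). Gphn read 5.32, 4.06 and 4.25 with saline and 0.93 and 1.40 at 15 min, 10.4-fold lower (limma adjusted p = 0.026). In each of these the groups were far apart, and saline replicate 1 exceeded the other controls by about 1 log2 unit or more.

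That order of the controls recurred. In 21 of the 53 falls with 5 values (39.6%), saline replicate 1 was more than 0.5 above both other saline libraries, against 4.09% of all rows; the gap of 0.5 was chosen after the values were seen. These 21 had a median fall of 10.4-fold, against 2.31-fold in the other 33. They include 12 of the 15 named falls. Saline replicate 1 was the highest of all 11 libraries in 30 of the 52 falls with 11 values (57.7%), against 10.6% of all rows. In these falls both 15 min libraries lie below all saline libraries, which by itself raises that share. All rows are therefore not a like background for it. In the 18S ribosomal RNA row (Rn18s-rs5, change -4.20, SE 0.73, limma adjusted p = 0.064, not called), too, saline replicate 1 was the highest of the 5 libraries. Both 15 min libraries were the lowest. That saline replicate 1 value is the maximum shared by all libraries, so the size of the change is uncertain. The part of the 18S row in the falls was not tested. Without saline replicate 1, 15 rows were called lower, Rsph3b, Jarid2, Camk1d, Kcnip1, Sspn and Gnb1l among them.

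**Figure D4:**
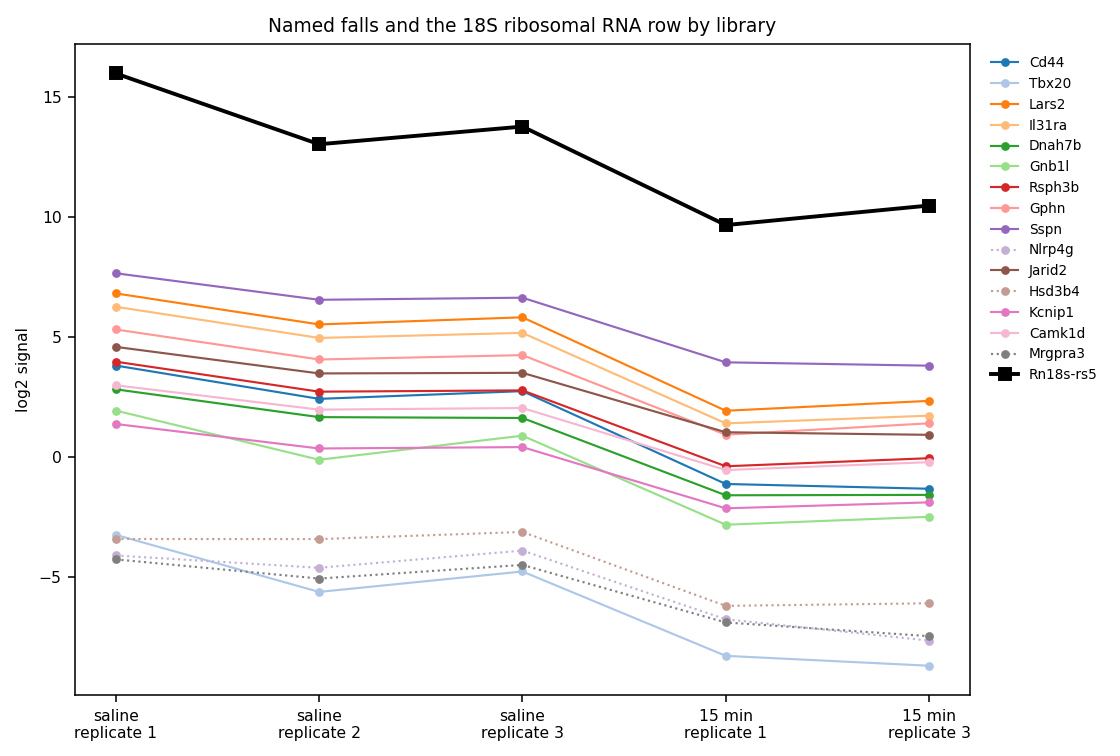
Log2 signal (vertical) of the 15 named falls and of the 18S ribosomal RNA row (black squares) in the 5 libraries (horizontal); lines only join the values of a row, solid where saline replicate 1 was more than 0.5 above both other controls and dotted where it was not. Like the 18S row, the solid rows have saline replicate 1 highest, while Nlrp4g, Hsd3b4 and Mrgpra3 (dotted) do not have it set apart.

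The 2 calls among 28 genes of motile cilia (0.239% of all rows were called) also had saline replicate 1 as the highest control. Rsph3b, a radial spoke protein, read 3.97, 2.72 and 2.77 with saline and -0.39 and -0.06 at 15 min, 10.4-fold lower (limma adjusted p = 0.014), while its near copy Rsph3a read -1.6, -1.69 and -1.61 with saline and -1.36 and -1.42 at 15 min. Dnah7b, a dynein heavy chain, read 2.82, 1.66 and 1.62 with saline and -1.6 and -1.59 at 15 min (limma adjusted p = 0.019), while its near copy Dnah7a had a change of -0.39. How the authors' counting split reads between near-identical copies is not known, so these rows are uncertain.

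Other named falls with this order were Jarid2, a subunit of a Polycomb complex (4.59, 3.48 and 3.51 against 1.03 and 0.92; 7.4-fold lower), and Camk1d, a calcium/calmodulin-dependent kinase (2.99, 1.97 and 2.04 against -0.55 and -0.22; 6.58-fold lower). Kcnip1, which modulates A-type potassium channels, was 6.65-fold lower, and Sspn, or sarcospan, of the dystrophin complex, 8.45-fold lower. All 4 had limma adjusted p-values of 0.020 or less. Il31ra, a cytokine receptor subunit, was 15-fold lower and Gnb1l, a WD-repeat protein, 11.8-fold lower. Tbx20, a T-box factor of the heart, was 15.5-fold lower at very low signal (-3.26, -5.64 and -4.79 against -8.31 and -8.72), and its change shrank to -0.25 when an offset of 0.25 was added on the linear scale.

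Among the named falls in which saline replicate 1 was not set apart, Hsd3b4 was called in the most fits. It belongs to the 3 beta-hydroxysteroid dehydrogenases, a family of near-identical copies, and read -3.43, -3.43 and -3.14 with saline and -6.22 and -6.11 at 15 min, 7.13-fold lower (change -2.83, SE 0.24; limma adjusted p = 0.0033). Alone among the falls it was called in 11 of 11 fits without 1 library, though not with the 5 libraries alone (adjusted p = 0.081). Mrgpra3, an itch receptor of sensory neurons, read -4.28, -5.08 and -4.51 with saline and -6.91 and -7.49 at 15 min, and Nlrp4g, of the NLR family, -4.12, -4.63 and -3.91 with saline and -6.78 and -7.67 at 15 min. All 3 had low signals, and with the offset of 0.25 their changes shrank to -0.41, -0.18 and -0.25.

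Smaller falls at higher signal, named after their values were seen, included Rbfox1, a neuronal splicing regulator, Shisa9, an auxiliary subunit of AMPA receptors, and Mettl17, a factor of mitochondrial ribosome assembly. Rbfox1 read 1.29, 1.16 and 1.41 with saline and 0.51 and 0.54 at 15 min (change -0.76, limma adjusted p = 0.048). Shisa9 read 0.32, 0.17 and 0.28 with saline and -0.46 and -0.49 at 15 min (change -0.73, limma adjusted p = 0.034), and Mettl17 0.62, 0.52 and 0.56 with saline and -0.0006 and -0.08 at 15 min (change -0.61, limma adjusted p = 0.048). The groups were apart in all 3, but each was called in only 2 of 11 fits without 1 library, and none of the 3 calls held after cyclic loess or the shift to a common median. One pair of falls lay within 10000 bases of each other: the long noncoding RNAs C230079O03Rik (chromosome 7, 136332216 to 136349415) and Gm36849 (chromosome 7, 136353364 to 136356725) lie 3948 bases apart in GRCm38.p6. The first read -2.82, -2.96 and -2.61 with saline and -4.90 and -4.95 at 15 min and the second -3.09, -3.19 and -2.51 with saline and -4.44 and -4.70 at 15 min.

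No mRNA of the insulin pathway itself passed the test. Of 21 tested receptors, ligands and substrates and 30 components of the PI3K, AKT and mTOR branch, limma called 0 (0.239% of all rows). An unadjusted p under 0.05 was found for 3 (15.1% of all rows). Insr, the insulin receptor, read -0.70, -0.82 and -0.58 with saline and -0.86 and -0.57 at 15 min, a change of -0.02 (95% interval -0.36 to 0.32). Irs2, a substrate whose transcription FOXO drives, read 1.23, 1.17 and 1.09 with saline and 1.34 and 1.66 at 15 min (change 0.34, 95% interval -0.11 to 0.79). For the 51 genes together, 46 had a 95% interval inside 1 log2 unit of no change (90.2%, against 60.1% of all rows). Inside 0.5 were 30 (58.8%, against 29.5%). Of the 30 components of the PI3K branch, 6 lay above saline and 3 below (6.96% and 31.1% of all rows). After the shift to a common median these were 18 and 0 (21.0% and 13.8% of all rows). The 21 receptors, ligands and substrates went from 2 above and 4 below to 4 and 1.

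No fuel gene beside Pdk4 passed the test. Slc2a1, the glucose transporter of the blood-brain barrier and astrocytes, read 0.75, 0.50 and 0.45 with saline and 1.16 and 1.24 at 15 min (change 0.63, 95% interval 0.28 to 0.99; limma adjusted p = 0.14). Eno1, a glycolytic enolase, read 3.03, 3.05 and 3.00 with saline and 2.70 and 2.71 at 15 min, a narrow difference of -0.32 that missed the threshold (limma adjusted p = 0.07). Epm2a, the glycogen phosphatase laforin, read -2.08, -2.14 and -1.97 with saline and -2.74 and -2.71 at 15 min (change -0.66, limma adjusted p = 0.066). Hcar1, a receptor for lactate, read -2.96, -2.86 and -2.68 with saline and -4.13 and -3.89 at 15 min (change -1.17, limma adjusted p = 0.11). The groups were apart in each of these 4. Of 87 fuel genes tested, 1 was called (0.239% of all rows), 8 lay above saline and 42 below (6.96% and 31.1% of all rows). These counts turn with the scaling: after the shift to a common median, glycolysis genes went from 1 above and 11 below to 5 and 1, and pyruvate dehydrogenase genes from 2 and 4 to 8 and 0. As deposited, the fuel genes' median was 0.02 above that of all rows.

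Lipid genes gave no call among 152 tested, where 0.239% of all rows were called. With so small a share, the lack of a call does not set these genes apart. They came from lists of uptake, oxidation, synthesis, storage, sphingolipids and cholesterol. Their median was within 0.01 of that of all rows. The smallest adjusted p, 0.10, belonged to Elovl1, which lengthens saturated fatty acids and read 0.89, 0.88 and 0.87 with saline and 0.58 and 0.37 at 15 min. At an unadjusted p under 0.05 the number was 24, where 15.1% of all rows had such a p. The 95% interval lay within 0.5 log2 units of no change for 85 genes (55.9%, against 29.5% of all rows) and within 1 unit for 142 (93.4%, against 60.1%). Cpt1a, the gate of mitochondrial fatty acid oxidation, read -1.45, -1.61 and -1.45 with saline and -1.42 and -1.75 at 15 min (change -0.08, 95% interval -0.41 to 0.25). Of 30 oxidation and carnitine shuttle genes, 12 lay below saline (31.1% of all rows did) and 0 above; with libraries shifted to a common median, 3 lay below and 4 above, so the one-sided count depends on the scaling. Apoe, the main lipid carrier of astrocytes, had a change of -0.02 (95% interval -0.27 to 0.23), and Fasn, the fatty acid synthase, one of 0.18 (-0.26 to 0.62). Lpl, which releases fatty acids from lipoproteins, could not be bounded closely: its controls ran from -4.33 to -2.36 and its interval from -0.99 to 2.32.

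**Figure D5:**
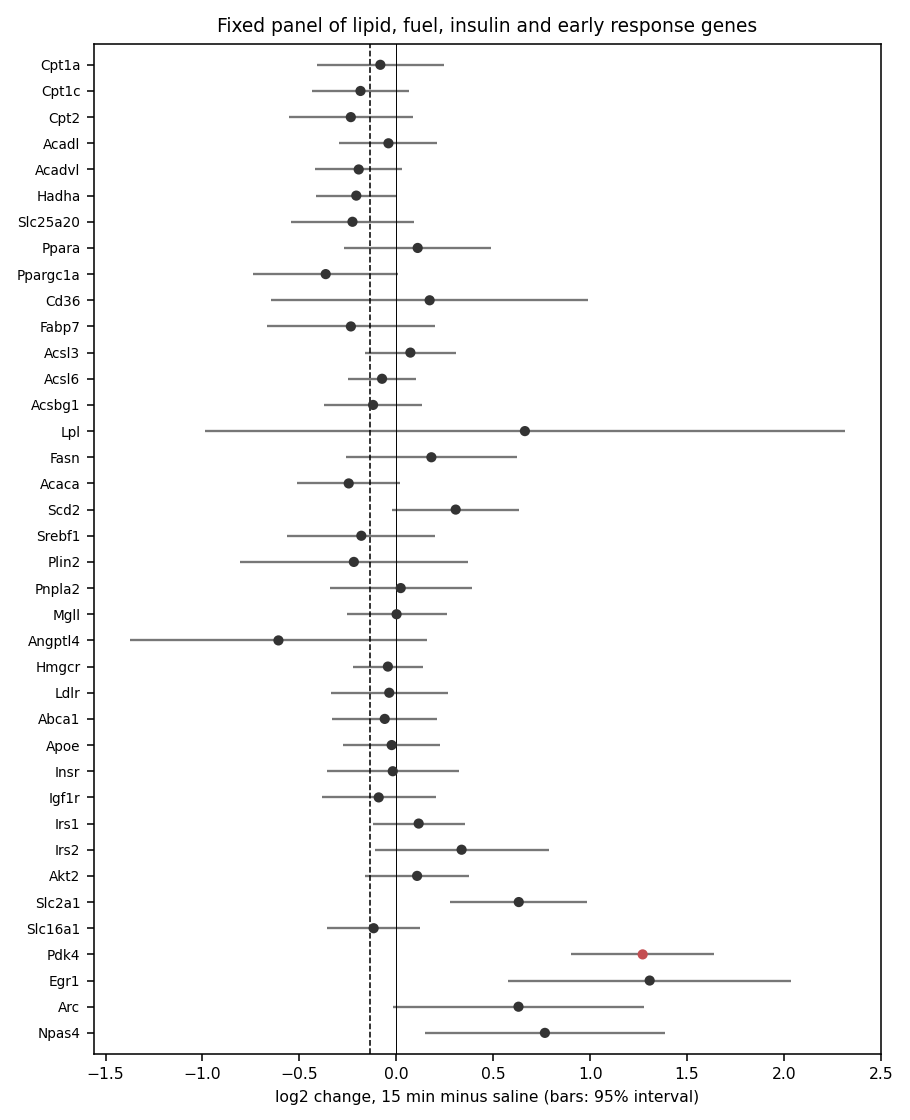
Log2 change (15 min minus saline, horizontal) of 38 genes of a chosen panel, with bars for the 95% interval of the limma fit, a dashed line at the median of all rows (-0.14) and the call in red. Pdk4 is the only call; most lipid and insulin pathway genes have intervals that include no change, and that of Lpl is the widest.

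The later groups share the saline controls with the 15 min comparison, so their mean signals are set beside it without a test. Fos averaged 2.60 at 15 min, 2.32 at 1 h and 1.08 at 6 h, against 0.96 with saline. Klf4 averaged -0.20, -0.17 and -1.63, against -2.11. Pdk4 averaged -0.09, -0.18 and -1.19, against -1.36. In these 3 the mean at 1 h was close to that at 15 min and the mean at 6 h was nearer to saline. Cyr61 was already lower at 1 h (-0.92) than at 15 min (-0.11), with a 6 h mean of -1.03, and Sgk1 was still at 0.26 at 6 h against -0.49 with saline. Hsd3b4 averaged -5.88 at 1 h and -4.40 at 6 h, against -3.33 with saline.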

How the data were processed

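RNA of the hippocampus was sequenced from stranded total RNA libraries read from both ends, per the labels' protocols. The authors deposited 1 table of log2 signals per gene symbol, quantile-normalized between libraries as the values show (equal minimum, median and maximum in each), with empty entries marked as missing. The base of the logarithm is not stated and was taken as 2 from the range. Software credited in the submitters' processing notes is bcl2fastq and Partek 6.7, with GRCm38 as the build. For the aligner, the counter, the annotation and strand use in counting the answer is not given in the sources used here. Depth is unknown, so no counting interval was given.

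Rows in the lowest 40% by mean (a missing entry ranked at the table's minimum) were dropped, leaving 27721. limma 3.58.1 in R 4.3.3 fitted the 4 groups to all 11 libraries, with empirical Bayes shrinkage and a mean-variance trend, and tested 15 min minus saline, two-sided, with Benjamini-Hochberg adjustment over 27653 rows. Missing entries were left out row by row, and a lone value in a group was taken to vary like the others. With 2 libraries against 3 an exact permutation test cannot give a one-sided p below 0.1, so none was used. The fit was tested on simulated data. Replicates 1 and 3 share numbers between the groups but nothing in the labels pairs them.

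The members, gene lists and named genes were chosen with earlier results of these data known. The rule for named genes took every rise past the threshold, the 16 largest falls whose groups did not overlap (predicted names passed over), 2 members of each list and a fixed panel; 1 of the 16 falls is not reported here. Marker genes, near copies and a few list members outside that rule were chosen after their values were seen. Alternatives were 2 other scalings, 2 other filters, the 5 libraries alone, complete rows, no trend, an offset of 0.25, a replicate block, array weights and each library left out in turn. Coordinates and promoters are those of RefSeq (GRCm38.p6), in which 52 of the 66 called rows were found by symbol or synonym. Of the 27653 rows tested, 24373 were found. The part of gene length or base composition in the calls was not tested.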

Additional observations from a re-analysis of the deposited data

How the results depend on the processing

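The number of rows past the threshold moved with nearly every choice. From 66 (12 higher, 54 lower) it went to 37 after cyclic loess (13 higher, 24 lower), to 46 after a shift to a common median (20 higher, 26 lower), to 115 without the mean-variance trend (103 lower), to 103 with an offset on the linear scale (88 lower) and to 142 with array weights (29 higher, 113 lower), where 6 h replicate 2 had the lowest weight, 0.227. With the 5 libraries alone 1 row was called, Fos, higher, and 0 lower; at an unadjusted p under 0.05 that fit gave 4642. With the replicate block 38 rows were called (6 higher, 32 lower), 32 of them among the 66. The deviations of same-numbered libraries correlated at 0.086 and 0.20, which does not establish a pairing. Leaving out 1 library gave 5 to 103 calls (2 to 26 higher, 2 to 77 lower): fewest without 15 min replicate 3, most without 6 h replicate 2. With 1 library left at 15 min, that library is assumed to vary like the other groups. The other filters and complete rows gave 57 to 81 calls. No named gene past the threshold changed direction in any of the 21 alternatives. Of the 12 rises, 2 (Fos and Klf4) and, of the 54 falls, 1 (Hsd3b4) were called in all 11 fits without 1 library. Which cause lies behind each shift was not tested. With 2 libraries at 15 min and unknown depth, absence of a call does not bound a change beyond the intervals given.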

Other observations

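Rows marked as missing also differed between the groups. A value in all 3 saline libraries and in neither 15 min library was found in 396 rows, 72 of them without predicted names, with a median saline signal of -7.97. The reverse, a value in both 15 min libraries and in no saline library, was found in 165 rows, 22 of them without predicted names, with a median of -7.54. Both sets lie near the bottom of the signal range, and since depth is unknown, a missing entry does not show that a transcript was absent.

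The 2 libraries at 15 min differed from each other along lines that the gene lists trace. Replicate 3 exceeded replicate 1 in 32 of 35 genes of the excitatory synapse and of long-term potentiation (91.4%, against 45.7% of all rows). It did so in 2 of 53 nuclear encoded respiratory subunits (3.77%), in 6 of 56 cytosolic ribosomal proteins (10.7%) and in 3 of 30 fatty acid oxidation genes (10%). All 12 choroid plexus markers with 5 values were higher in replicate 1. Among the controls, saline replicate 3 was the highest in 26 of the 35 synaptic genes (74.3%, against 42.5% of all rows) and in all 9 oligodendrocyte markers. These are differences between single libraries, and no test was made of them.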
